A study of Mus musculus with 20 samples.

Results

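The canonical transient receptor potential (TRPC) channels were examined in dorsal root ganglia (DRG) of the late mouse embryo. Members were chosen by gene symbol, as the genes named Trpc followed by a digit. 6 of the 37620 genes in the expression table are described, namely Trpc1, Trpc2, Trpc4, Trpc5, Trpc6 and Trpc7, each matched to 1 Ensembl identifier. RNA sequencing had been carried out on whole ganglia of 10 C57Bl6 donor embryos at E18.5, with no transgene or treatment in any group. The ganglia at L4-5 of an embryo made up its lumbar library, and those at L6-S1 its second one, called sacral. There were 5 male donors (M1, M3, M5, M7 and M8) and 5 female donors (F3, F7, F8, F9 and F10), which made 20 libraries in 4 groups by level and sex. In the mouse, many sensory neurons of the pelvic organs lie in the ganglia at L6-S1, and the comparison of levels asks which transcripts mark those ganglia before birth. Because whole ganglia were used, a lower level of a transcript through fewer cells of a type and through less RNA per cell cannot be told apart.

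TRPC channels are tetramers of subunits that let calcium and sodium into the cell. They open downstream of receptors coupled to Gq proteins or of receptor tyrosine kinases, through phospholipase C. By sequence and behaviour they fall into a group of Trpc4 and Trpc5, which need phospholipase C but are not opened by diacylglycerol, a group that contains Trpc6 and Trpc7, which diacylglycerol opens directly, and the more distant Trpc1 and Trpc2. Trpc1 mostly works as a partner in channels with other subunits, and Trpc2 carries the pheromone response of the vomeronasal organ in rodents. In sensory neurons several members have been linked to touch, itch, cold and growth cone behaviour.

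To show how alike the members are in the sequence that reads are mapped to, their coding sequences were compared. The longest run of residues encoded by all 6 genes was 6 codons long, and it is the TRP box, the conserved stretch just after the last membrane segment. For 4 members its 18 bases are shown in capitals between 6 flanking bases on either side, 5′ to 3′ on the coding strand.
Trpc1: gataaaGAATGGAAGTTTGCTCGAgcaaag
Trpc4: gatataGAATGGAAATTTGCTCGAacaaag
Trpc5: gatattGAGTGGAAGTTTGCGAGAacaaag
Trpc6: gacgtgGAGTGGAAGTTTGCAAGGgccaaa
Although the residues were the same, 13 of the 18 bases were identical in these 4 genes. Each stretch lay within 1 coding exon on the mm9 build. The positions were chr9:95608776-95608805 on the minus strand for Trpc1 (exon 12 of 13) and chr3:54106031-54106060 on the plus strand for Trpc4 (exon 8 of 11). They were chrX:140822857-140822886 on the minus strand for Trpc5 (exon 8 of 11) and chr9:8656551-8656580 on the plus strand for Trpc6 (exon 9 of 13). Across whole coding sequences, the closest pairs were Trpc6 with Trpc7 (71.6% of aligned bases identical) and Trpc4 with Trpc5 (71.3%). The most distant pair was Trpc1 with Trpc7, at 58.9%. The longest identical run between transcripts of Trpc4 and Trpc5 was 24 bases, and over all 15 pairs the longest runs measured 12 to 37 bases. The values below were made from uniquely mapped reads only, and the read length is not given in the sources used here.

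Expression was deposited in log2 RPKM units. RPKM divides the reads of a gene by its exon length and by the size of the library, and a log2 value of 0 stands for 1 RPKM. Whole read numbers could be recovered from these values and are given as reads. Libraries held 19403023 to 39257771 reads, of which 18.1% to 61.4% lay on the 2 mitochondrial ribosomal RNA (rRNA) genes. That share was high in both libraries of male donor M5 (61.4% lumbar and 49.9% sacral) and of female donors F7 (49.3% and 45.2%) and F8 (43.7% and 37.7%), and in the sacral libraries of F9 (40.1%) and F10 (38.3%). Of 12 pan-neuronal marker genes all 12 passed the filter described next, whereas 0 of 8 spinal cord markers did.

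Of the 6 members, 3 had a group mean of at least 1 RPKM and entered the test over 14529 genes: Trpc1, Trpc2 and Trpc4. Trpc5, Trpc6 and Trpc7 lay below that filter and were tested in a second fit over all 29049 genes with a value.

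Trpc1 was the most abundant member, at 2.20 ± 0.54 log2 RPKM (SD, n = 20 libraries from 10 donors), and was above 1 RPKM in 20 of 20 libraries. Trpc4 followed at 1.28 ± 0.71 and was above 1 RPKM in 18. Trpc2 lay at -0.05 ± 0.73, Trpc7 at -1.09 ± 0.67, Trpc5 at -1.93 ± 1.01 and Trpc6 at -2.11 ± 0.71. These levels are per length of the annotated exons. The Trpc6 model of 2793 bases holds only coding sequence, so that reads in its untranslated parts were not counted. Neighbours in this order were compared over donors, using the mean of both libraries of a donor, by exact sign-flip permutation tests (two-sided, smallest possible p 0.00195, not adjusted). Trpc1 exceeded Trpc4 in 10 of 10 donors, by 0.92 ± 0.27 log2 units (SD, n = 10; exact p = 0.00195). Trpc4 exceeded Trpc2 by 1.33 ± 1.18 in 8 of 10 donors (exact p = 0.0117), and Trpc2 exceeded Trpc7 by 1.04 ± 1.20 in 8 (exact p = 0.0117). Trpc7 exceeded Trpc5 by 0.84 ± 0.64 in 9 donors (exact p = 0.00586). Trpc5 and Trpc6 did not differ beyond their spread, at 0.18 ± 0.66 (exact p = 0.412).

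**Figure D1:**
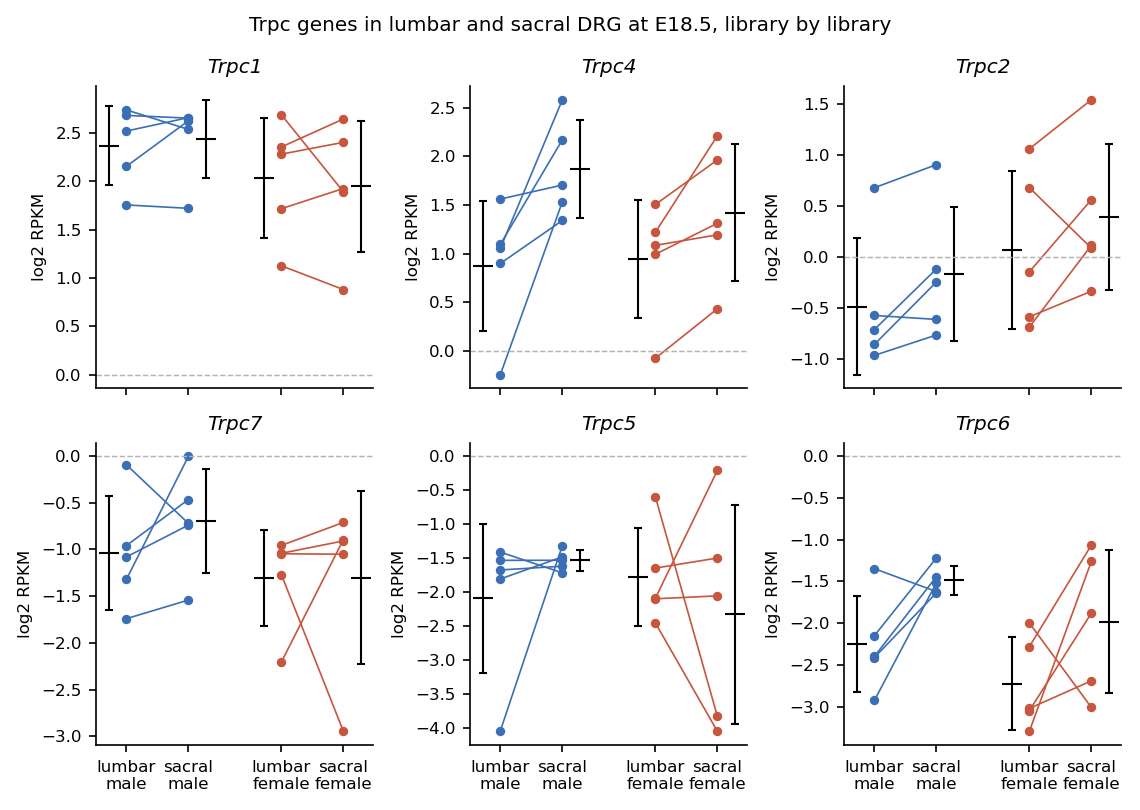
Level of each Trpc gene in log2 RPKM (vertical axes, scaled per gene) in the 4 groups, with male donors in blue, female donors in red, a line joining the 2 libraries of a donor, and black bars for mean ± SD (n = 5). The dashed line marks 1 RPKM; every Trpc4 line rises from lumbar to sacral, while Trpc5, Trpc6 and Trpc7 stay below 1 RPKM in all 20 libraries.

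Trpc4 was the member upregulated in sacral DRG. It lies on chromosome 3 (ENSMUSG00000027748, mm9, 53959979 to 54122389, plus strand) and encodes a subunit of calcium-permeable channels that respond to Gq-coupled receptors. In lumbar male libraries it measured 0.90 in M1, 1.10 in M3, -0.24 in M5, 1.05 in M7 and 1.56 in M8. The sacral libraries of the same males measured 1.34, 2.17, 1.53, 2.58 and 1.71. The M5 lumbar library was the lowest of all 20, and only M8 among lumbar males reached the range of the sacral males.
In lumbar female libraries Trpc4 measured 1.22 in F3, -0.08 in F7, 1.08 in F8, 0.99 in F9 and 1.50 in F10. The sacral libraries of these females measured 2.21, 0.43, 1.19, 1.31 and 1.96. Groups overlapped in females. F7 was low at both levels, and lumbar F10 (1.50) lay above sacral F8 (1.19) and F9 (1.31). Within each donor the sacral library was the higher one. The rise was seen in 10 of 10 donors, a pattern found in 0.895% of the genes tested, and ranged from 0.11 in F8 to 1.78 in M5.

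On average Trpc4 was 0.74 ± 0.20 log2 units (SE) higher in sacral DRG, a fold of 1.66 (limma, adjusted p = 0.0315). It was 1 of 3 tested members past the threshold in this direction, against 2.70% of all tested genes, and 0 members were past it in the lumbar direction, against 4.03%. The call was close to the threshold. It was lost when the pairing by donor was left out of the model (adjusted p = 0.174) and over all genes with a value (adjusted p = 0.0549). It was also lost without M3, M5, M7, F3, F9 or F10, with adjusted p-values of 0.0538 to 0.0873, and was kept without M1, M8, F7 or F8. The median over all tested genes was -0.05. Over its 19 alternatives the Trpc4 difference ran from 0.58 to 0.84. Its sign could not turn in many of them. Other blocks, filters and blank values left the estimate unchanged, and with 10 of 10 donors positive no left-out donor could reverse it.

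**Figure D2:**
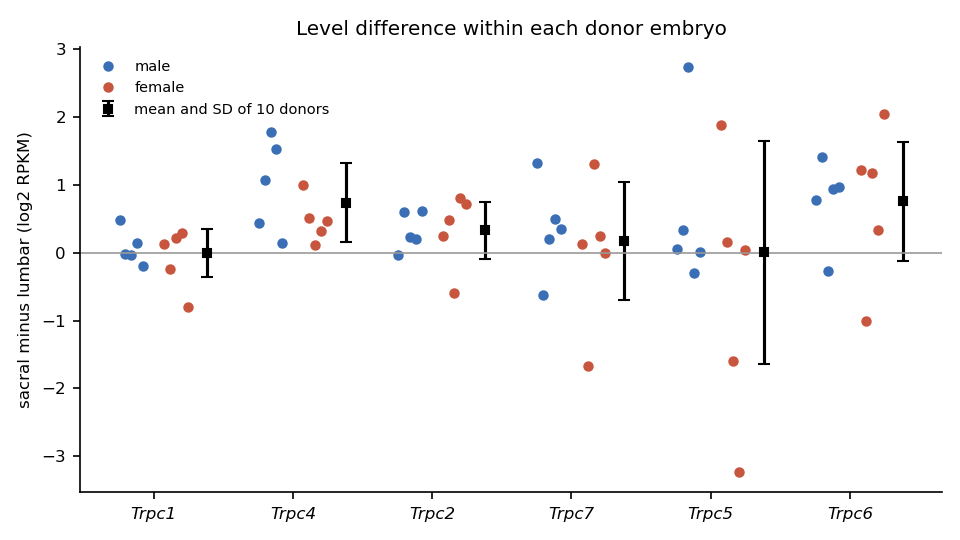
Sacral minus lumbar difference in log2 RPKM (vertical axis) of each Trpc gene in each of the 10 donors, males in blue and females in red, with black squares and bars for mean ± SD (n = 10). All 10 Trpc4 points lie above 0, and the Trpc5 points spread from -3.23 to 2.73.

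Trpc6, whose channels open with diacylglycerol, had a difference of the same size on far fewer reads. The gene lies on chromosome 9 (ENSMUSG00000031997, 8544432 to 8680565, plus strand). Lumbar male libraries held 15 reads in M1, 11 in M3, 18 in M5, 18 in M7 and 18 in M8, and the sacral ones 28, 32, 18, 33 and 29. Lumbar female libraries held 19 reads in F3, 17 in F7, 14 in F8, 12 in F9 and 8 in F10, and the sacral ones 52, 8, 20, 11 and 29. On the log2 RPKM scale the sacral library was higher in 8 of 10 donors, the exceptions being M5 and F7. The mean difference was 0.75 ± 0.26 (SE) and did not pass the threshold (limma over 29049 genes, adjusted p = 0.126), in a fit that called 2.60% of genes. The exact sign-flip permutation test over the 10 donors, which was not adjusted, gave p = 0.0312, and this was lost without M1, M3, M7, M8, F3, F8 or F10, with a highest p of 0.0625.

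Trpc1, the common partner subunit, showed no level difference past the threshold. It lies on chromosome 9 (ENSMUSG00000032839, 95607046 to 95650777, minus strand). Lumbar libraries ranged from 1.13 to 2.74 log2 RPKM with a median of 2.32, and sacral libraries from 0.88 to 2.66 with a median of 2.47. The difference was -0.01 ± 0.17 (SE; limma adjusted p = 0.984), with the sacral library higher in 5 of 10 donors, and its sign turned under other scalings and without 5 of the donors. The gene had 128 to 685 reads per library.

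Trpc2 ranged from -0.97 to 1.06 log2 RPKM in lumbar libraries (median -0.58) and from -0.77 to 1.54 in sacral libraries (median -0.02). The difference of 0.32 ± 0.23 (SE), higher in 8 of 10 donors, did not pass the threshold (limma adjusted p = 0.40). The exact sign-flip permutation test over the 10 donors, which was not adjusted, gave p = 0.0391. The gene model (ENSMUSG00000070425, chromosome 7, 109214025 to 109245378, plus strand) is wider than the channel. Of its 20 annotated transcripts, 10 end by position 109232279, before the TRP box exon, and the exons up to there make up 61.7% of its exonic bases. Among the 15 coding transcripts, 8 have a coding part that ends before that exon. The value per gene therefore counts reads of transcripts without the channel part, and how many of the 125 to 574 reads per library came from channel transcripts cannot be told apart.

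Trpc7, which diacylglycerol also opens, lies on chromosome 13 (ENSMUSG00000021541, 56874474 to 56997150, minus strand) and had 11 to 114 reads per library. Its difference was 0.17 ± 0.26 (SE; limma over all genes with a value, adjusted p = 0.76; exact sign-flip permutation p = 0.551), higher in 7 of 10 donors. Trpc5, the closest relative of Trpc4, lies on the X chromosome (ENSMUSG00000041710, 140816214 to 141122723, minus strand). It had the widest spread between donors. Lumbar male libraries held 45 reads in M1, 43 in M3, 5 in M5, 54 in M7 and 59 in M8, and the sacral ones 51, 59, 40, 42 and 49. In females the lumbar libraries held 39 reads in F3, 39 in F7, 38 in F8, 116 in F9 and 33 in F10, against 169, 41, 8, 9 and 30 in the sacral ones. Thus F9 had the most reads of any lumbar library and nearly the fewest of any sacral one, and F3 the most of all. The mean difference was 0.00 ± 0.40 (SE; adjusted p = 0.995; exact sign-flip permutation p = 0.982). Gm15070, Gm15071 and Mageb16-ps1 lie within the Trpc5 span and shared 0 exonic bases with it. The other members had no overlapping gene in the annotation.

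No member differed between male and female embryos past the threshold. In lumbar DRG this was 0 of the 3 tested members (limma, 0.330% of all tested genes called), and in sacral DRG 0 of 3 (1.01%), with 0 of 3 at an unadjusted p under 0.05 at either level. In sacral DRG Trpc4 measured 1.87 ± 0.50 (SD, n = 5) in males and 1.42 ± 0.70 in females, with a difference of -0.44 ± 0.35 (SE; adjusted p = 0.54). In lumbar DRG the corresponding values were 0.87 ± 0.67 and 0.95 ± 0.60, with a difference of 0.07 ± 0.35 (adjusted p = 0.981). The level difference of Trpc4 was 0.99 ± 0.28 (SE; adjusted p = 0.122) in males and 0.48 ± 0.28 (adjusted p = 0.37) in females. The interaction of -0.52 ± 0.40 had an adjusted p of 0.995 (unadjusted p = 0.209), so a difference between the sexes was not shown. Of the 14529 genes 0 had an interaction past the threshold by limma, and 470 had an unadjusted p under 0.05.
Trpc1 was lower in females by 0.34 ± 0.29 in lumbar and by 0.49 ± 0.29 in sacral DRG, written as differences of -0.34 and -0.49 (adjusted p = 0.825 and 0.419). Trpc2 differed by 0.55 ± 0.41 and 0.56 ± 0.41 (adjusted p = 0.778 and 0.506). For the 3 members below the filter, differences between the sexes ranged from -0.80 to 0.32, with adjusted p-values of 0.70 to 0.97 in the fit over all genes with a value, which called 0.131% of genes in lumbar and 0.299% in sacral DRG. The female donors included F7 and F8, with a high mitochondrial rRNA share at both levels, and F9 and F10, with a high share in the sacral library. Male donor M5 also had a high share at both levels (61.4% and 49.9%). With the share in the model the lumbar and sacral differences were -0.30 and -0.37 for Trpc1, 0.49 and 0.38 for Trpc2, and 0.12 and -0.31 for Trpc4. None of these was past the threshold.

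Trpc1 and Trpc4 were lower, and Trpc2 was higher, in libraries with a higher mitochondrial rRNA share. This relation was examined after the data were seen, by adding the share to the model as a covariate. Trpc1 was lower by 0.31 ± 0.07 log2 units (SE) for each 10 percentage points of share, written as -0.31 (limma adjusted p = 0.0011), and Trpc4 had a slope of -0.35 ± 0.08 (adjusted p = 0.00128). Trpc2 had a slope of 0.47 ± 0.08 (adjusted p = 0.000134). Such slopes were common, since 36.3% of all tested genes were lower and 16.4% higher with the share. The lumbar libraries of M5, F7 and F8 were the 3 lowest lumbar libraries for Trpc1 and the 3 highest for Trpc2. These donors did not take the same places among sacral libraries, where F10 (38.3% share) and F9 (40.1%) had higher shares than F8 (37.7%). F10 was below F8 for Trpc1, at 1.89, and F10 and F9 were above F8 for Trpc2, at 0.56 and 0.11. Sacral F9 departed from the relation for Trpc1, at 2.65, near the top of the sacral range of 0.88 to 2.66. Trpc1 measured 1.76 lumbar and 1.72 sacral in M5, 1.13 and 0.88 in F7, and 1.72 and 1.93 in F8, while the lumbar libraries of the other 7 donors lay between 2.16 and 2.74. Trpc2 measured 0.68 and 0.90 in M5, 1.06 and 1.54 in F7, and 0.68 and 0.09 in F8, against -0.97 to -0.15 in the lumbar libraries of the other 7. In the fit over all genes with a value, in which 18.0% were lower with the share, Trpc5 and Trpc7 had slopes of -0.46 ± 0.18 and -0.31 ± 0.12 (adjusted p = 0.0492 and 0.0422), and Trpc6 one of 0.06 ± 0.13 (adjusted p = 0.717). The Trpc5 and Trpc7 slopes were close to the threshold, and no alternatives were run for them. They include libraries with few reads: for Trpc5, 5 in lumbar M5 and 8 in sacral F8, and for Trpc7, 11 in sacral F7.
With the share in the model the level difference of Trpc4 was 0.76 ± 0.17 (SE; adjusted p = 0.0119). Without M5 and F7 its mean within-donor difference was 0.63 ± 0.51 (SD, n = 8), higher in 8 of 8 donors, against 0.74 ± 0.58 in all 10. Within-donor differences of Trpc2 averaged 0.32 ± 0.47 without these donors and 0.32 ± 0.42 with them. F8, which also had a high share at both levels, was kept in these means. Its own differences were 0.11 for Trpc4 and -0.59 for Trpc2. Without F8 alone the fitted level differences were 0.78 for Trpc4 and 0.44 for Trpc2.

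**Figure D3:**
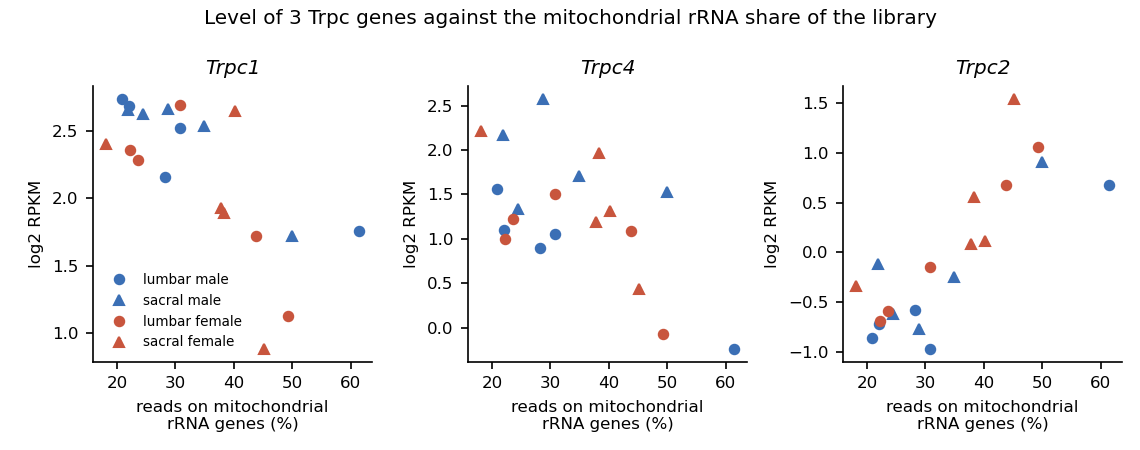
Level of Trpc1, Trpc4 and Trpc2 in log2 RPKM (vertical axes) against the percentage of a library's reads on the 2 mitochondrial rRNA genes (horizontal axes, 18.1% to 61.4%). Each point is 1 of 20 libraries, lumbar as circles and sacral as triangles, male in blue and female in red; Trpc1 and Trpc4 points fall and Trpc2 points rise towards higher shares.

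Markers of several cell types also differed between the levels. Pan-neuronal genes were at a negative difference in 12 of 12, with 1 past the threshold (Snap25), and their summed level ran from 820 to 1724 RPKM in lumbar and from 418 to 1490 RPKM in sacral libraries, falling from lumbar to sacral in 9 of 10 donors. Genes of Schwann cells and satellite glia were negative in 12 of 12, with 5 past the threshold, and summed to 416 to 582 RPKM in lumbar and 270 to 457 RPKM in sacral libraries. Of 10 genes of large myelinated neurons 5 were lower and 1 (Maf) higher in sacral DRG, with sums of 305 to 784 RPKM lumbar and 165 to 382 RPKM sacral. Fibroblast and meninges genes were at a positive difference in 11 of 12, with 8 past the threshold, and summed to 246 to 541 RPKM in lumbar and 337 to 712 RPKM in sacral libraries. Small nociceptive neuron genes were at a negative difference in 11 of 12, with 1 past the threshold (Tac1). The exception was Trpv1, which was past the threshold in the positive direction. The sum of this list had a median of 550 RPKM in lumbar and 440 RPKM in sacral libraries, and it rose from lumbar to sacral in only 1 donor. Among cartilage genes 1 of 2 tested was higher, among endothelial genes 2 of 4, and among macrophage genes 1 of 7. No gene past the threshold was found among tested markers of skeletal muscle (11), smooth muscle and pericytes (8), erythroid cells (4), autonomic neurons (1) or proliferation (8). The spinal cord list summed to 0.145 to 2.02 RPKM, and its marker Mnx1 never exceeded 3 reads. Thus the Trpc4 level was higher in sacral DRG while the neuronal and glial sums were lower and the fibroblast sum higher. The part of these shifts in the differences of Trpc4 and Trpc6 was not tested.

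Genes of the same signalling pathway were then compared between the levels, where 6.73% of all tested genes were called in either direction and 24.1% had an unadjusted p under 0.05. Of 16 genes for proteins that assemble with or bind TRPC channels, 14 were tested, and 1 was past the threshold. This was Pkd2, a polycystin channel subunit of the wider TRP superfamily that can join TRPC1. Lumbar libraries averaged 1.21 ± 0.61 log2 RPKM (SD, n = 10) and sacral libraries 1.92 ± 0.57, a rise of 0.72 ± 0.19 (SE) in 10 of 10 donors (limma adjusted p = 0.0286). The other 13 had differences of -0.34 to 0.17 and none of them was called, including Trpc4ap, which encodes a protein that binds TRPC channels. The median of the list was -0.16, against -0.05 over all tested genes.

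Upstream of the channels, 0 of 11 tested genes of Gq proteins and phospholipase C were called by limma, with 2 at an unadjusted p under 0.05 and a median of -0.10. For diacylglycerol kinases and lipases, which remove the lipid that opens Trpc6 and Trpc7, 0 of 11 were called, with 1 at an unadjusted p under 0.05 (median 0.04). In store-operated calcium entry, a pathway in which TRPC channels have been placed beside STIM and ORAI proteins, 0 of 11 were called, with 5 at an unadjusted p under 0.05 (median 0.01). Among Gq-coupled receptors 13 of 26 were tested and 2 were lower in sacral DRG. F2rl2, a thrombin receptor of the protease-activated family, went from 3.61 ± 0.42 to 3.06 ± 0.61 log2 RPKM (difference -0.55 ± 0.16 SE, adjusted p = 0.0392), lower in 9 of 10 donors. S1pr3, a receptor for sphingosine 1-phosphate, went from 3.08 ± 0.35 to 2.61 ± 0.28 (difference -0.47 ± 0.11, adjusted p = 0.0151), also lower in 9 of 10. The receptor list had a median of -0.36, with 10 of 13 tested genes at a negative difference.

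Of 21 other TRP channel genes 10 were tested, and 3 were called. Besides Pkd2, these were the capsaicin receptor gene Trpv1, with a difference of 0.70 ± 0.19 (SE; limma adjusted p = 0.0322), and the cold receptor gene Trpm8, with -2.16 ± 0.27 (adjusted p = 8.48e-05). 4930453O03Rik, on the opposite strand inside Trpm8, shared 388 exonic bases with it, and whether reads were counted by strand is not stated, so reads in these bases cannot be told apart. Trpc4, Pkd2 and Trpv1, which were past the threshold, had differences of 0.70 to 0.74. Trpc6, which was not past it, had one of 0.75. Over the 6 lists 5 of 69 distinct tested genes were called (7.25%, against 6.73% of all tested genes), and this count ran from 2 to 17 in fits that each left out 1 donor.

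**Figure D4:**
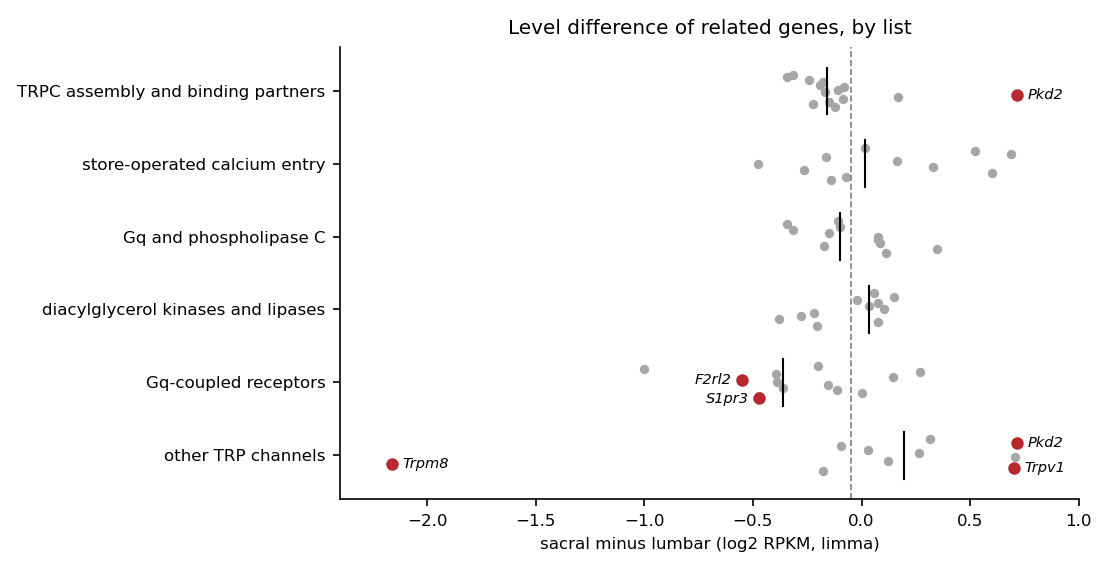
Sacral minus lumbar difference in log2 RPKM (horizontal axis) of each tested gene in the 6 lists of related genes (rows), with called genes in red and named, other genes in grey, a black bar at each list's median and a dashed line at the median of all tested genes (-0.05). Trpm8 stands at -2.16, and the called genes on the right are Pkd2, which is in 2 lists, and Trpv1.

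For each tested member the genes most like it over the 20 libraries were found by Pearson's r on log2 RPKM. This is a description only, since libraries share donors and the mitochondrial rRNA share. Spinal level was not removed first, so a level difference of the member enters r, and the level differences below are no separate result. Trpc4 was most like Htr3a (r = 0.92), which encodes a subunit of the serotonin-gated channel, Gabrg3 (0.91), a GABA-A receptor subunit, and 6330403A02Rik (0.91). Level differences were 0.94 for Htr3a (limma adjusted p = 0.0115), 0.53 for Gabrg3 (adjusted p = 0.081) and 0.71 for 6330403A02Rik (adjusted p = 0.00995). Trpc1 was most like Scamp1 (0.95), Fam18a (0.94) and Slc41a2 (0.94), and Trpc2 was most like Hjurp (0.95), Trim39 (0.94) and Top3b (0.94). None of these 6 genes was called between levels, with adjusted p-values of 0.431 to 0.676 by limma.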

How the data were processed

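Per the study's methods, the authors amplified total RNA of whole ganglia, sequenced it on an Illumina HiSeq2500 and aligned the reads to mm9 (Ensembl 67) with Subread. Reads that mapped to 1 place were retained and assigned to genes by featureCounts. The authors scaled libraries by TMM in edgeR, applied voom, and deposited log2 RPKM values per gene. RNA amplification and the mitochondrial rRNA share affect how many reads are left for a gene. Symbols, positions and exon lengths came from GENCODE M1 (mm9), which held 37205 of the identifiers. With these lengths the values of 28324 genes were whole reads (tolerance 0.05), and a blank was set to 0.5 reads. No molecular identifiers were used, so read numbers carry more than counting error.

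Groups and donors came from the labels. Limma 3.58.1 (R 4.3.3, statmod 1.5.0) was fitted on log2 RPKM with 4 group means, donor as a block by duplicateCorrelation (0.342) and a variance trend, with Benjamini-Hochberg adjustment over all genes tested and a threshold of 0.05, two-sided. Both libraries of a donor come from the same embryo, so they are paired by design; correlations of their deviations from the group means ran from -0.166 to 0.676. Genes with a mean of at least 1 RPKM in 1 group were tested, and Trpc2 and the members below that also by exact sign-flip permutation. The fit was also run on simulated data built from the means and spreads of these data, with an outcome not given here. Alternatives were other blocks, filters, blank values, library weights, the mitochondrial rRNA share as a covariate, voom on recovered reads, centring, and leaving out each donor. Genes named outside the family were those past the threshold in the pathway lists and the 3 most like each tested member. Coding sequences are those of GENCODE M1 transcripts. The members and lists were chosen with earlier results of these data known. 1 further gene that the naming rule would take, and the sequences of some members, are not reported here.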

Additional observations from a re-analysis of the deposited data

Results flagged for a closer look

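Among the 24 sets of 5 libraries (6 members in 4 groups), 5 held a library that stood apart from the other 4 by Dixon's ratio of the gap to the range, with a critical value of 0.71. Chance flags about 5% of such sets. Trpc1 measured 1.72 log2 RPKM in the sacral male library of M5, against 2.54 to 2.66 in the others (ratio 0.869). Trpc2 measured 0.68 in the lumbar male library of M5, against -0.97 to -0.58 (ratio 0.762). Trpc5 measured -4.04 in that same library, on 5 reads, against -1.80 to -1.41 (ratio 0.85). Trpc7 measured -2.21 in the lumbar female library of F8, against -1.27 to -0.96 (ratio 0.749), and -2.95 in the sacral female library of F7, against -1.05 to -0.71 (ratio 0.848). All 5 lie in M5, F7 or F8, the donors with a high mitochondrial rRNA share at both levels. The part of that share in these values was not tested.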

How the results depend on the processing

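The sign of the Trpc4 difference could not turn with other blocks, filters or blank values, which left the estimate at 0.74. Leaving out a donor could not turn it either, since 10 of 10 donors were positive. The Trpc4 difference of 0.74 stayed past the threshold in 11 of 19 alternatives, with adjusted p-values of 0.00964 to 0.174 (limma). It was 0.74 with no replicate block (adjusted p = 0.174) and 0.74 with no filter (adjusted p = 0.0549), both no longer called, and 0.64 to 0.84 when each donor was left out. With the replicate block as a fixed effect the paired fit kept it (adjusted p = 0.0239). The Trpc1 difference of -0.01 became 0.012 with the mitochondrial rRNA share as covariate, 0.007 after centring and 0.063 by voom on recovered reads, and ran from -0.058 to 0.081 without single donors. Trpc2, Trpc6 and Trpc7 kept their direction and stayed uncalled in each alternative, while Trpc5 ran from -0.30 to 0.34 without single donors. The exact p for Trpc6 ran from 0.00781 to 0.0625 and that for Trpc5 from 0.324 to 1 over left-out donors.

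No sex difference or interaction of a member was called under any alternative. Signs turned for the Trpc2 interaction (0.01) with the share as covariate (-0.11) and over left-out donors (-0.11 to 0.24). Left-out donors also turned the sign of the Trpc4 lumbar sex difference (-0.21 to 0.33), the Trpc5 lumbar sex difference (-0.17 to 0.49), and the interactions of Trpc1 (-0.248 to 0.024), Trpc6 (-0.33 to 0.43) and Trpc7 (-0.67 to 0.076).

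Over all genes, the 978 level calls became 154 with no replicate block and 2998 with library weights, and ran from 406 (without F10) to 1608 (without F8). Of the 978, 40.1% were higher in sacral DRG, against 60.4% of 806 by voom. The voom fit also changed the scaling, with library sizes that left out mitochondrial rRNA reads and no TMM. The median level difference was -0.05 in the main fit and 0.01 by voom. Marker sums were taken on the deposited scaling only. The 48 lumbar sex calls became 197 with weights, 228 with the share as covariate and 73 after centring (14 to 81 without single donors). The 147 sacral ones became 87 with no filter, 751 with weights, 702 with the share and 283 after centring (55 to 444 without single donors). Related genes called between levels, 5, became 1 with no replicate block, 24 with weights and 8 with the share (2 to 17 without single donors). The cause of these changes was not tested. Depth limits Trpc5, Trpc6 and Trpc7, with as few as 5, 8 and 11 reads in a library.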
